A study of Sus scrofa domesticus with 4 samples.

Results

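Receptors for steroid hormones and the proteins that make and convert these hormones were examined in pig uterine muscle (myometrium) cultured with orexin B. The set comprised 10 genes: the receptors ESR1, ESR2, PGR, PGRMC1 and NR3C1, and, for synthesis and conversion, STAR, CYP11A1, CYP17A1, HSD17B4 and HSD11B1. Members were all non-control array probes whose RefSeq accession belongs to one of these genes, which gave 10 of the 3029 genes named on the array and 32 of its 43603 probes, 12 for the receptors and 20 for the synthesis and conversion genes. Myometrial slices came from the middle of the uterine horns of mature Large White x Polish Landrace gilts, aged 7 to 8 months and weighing 120 to 130 kg, on days 15 to 16 of gestation. After a 2 h preincubation the slices were kept for 24 h with 10 nM orexin B (OXB), a neuropeptide that acts through the orexin receptors, or without treatment. RNA of OXB-treated and of non-treated slices was hybridised together on 4 Agilent pig arrays of 2 colours, numbered 1 to 4. The labels name 4 gilts and 4 experiments with duplicate cultures, and do not say whether the RNAs of an array came from the same gilt or whether duplicates were pooled. Both groups are thus pieces of whole tissue from pregnant gilts.

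Oestradiol acts through the nuclear receptors ESR1 and ESR2, progesterone through PGR, and cortisol through NR3C1; bound receptor enters or stays in the nucleus and switches target genes on or off. Steroid synthesis begins when STAR moves cholesterol into mitochondria, where CYP11A1 cuts its side chain; CYP17A1 then opens the route to androgens, the precursors of oestrogens. Other enzymes set the local supply of active hormone: HSD17B4 oxidises oestradiol to the weaker oestrone, and HSD11B1 turns inert cortisone into cortisol. In pregnancy progesterone keeps the myometrium quiet, oestrogens raise its readiness to contract, and in the pig the conceptuses themselves release oestrogen around implantation.

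All ratios below are OXB-treated over non-treated, on a log2 scale, with their moderated standard error over 4 arrays from limma. By the dye fields of the labels, Cy5 marked the OXB RNA of arrays 1 and 3, and Cy3 that of arrays 2 and 4; the labelling protocol gives only the first orientation. Levels are normalized log2 intensities of a channel, comparable across arrays for a probe but not between probes. Of 43603 probes, 19879 were well above background on all 4 arrays in a channel and were tested; no probe passed an adjusted p of 0.05 (0%; smallest adjusted p = 0.596, limma with Benjamini-Hochberg adjustment), and 7.72% had an unadjusted p under 0.05, 4.31% higher and 3.41% lower. When arrays were only median-centred, without loess, the split at that level was 172 higher to 5 lower, where loess gave 856 to 678. Arrays 2, 3 and 4 shared a slide, and array 1 lay on another. Of 13 listed smooth muscle markers, 8 were matched to a probe, and all 8 (ACTA2, CNN1, DES, MYLK, MYL9, SMTN, TPM1 and TPM2) passed the background limit in both channels of every array. The number of arrays limits the precision.

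Most receptors were measured, and the genes that start steroid synthesis were not. Of 5 receptors, 4 had a tested probe (ESR1, PGR, PGRMC1 and NR3C1), and of 5 synthesis and conversion genes 2 had (HSD17B4 and HSD11B1). Over the array, 1979 of 3029 named genes (65.3%) had a tested probe. By probe the count was 8 of 12 for the receptors and 9 of 20 for the synthesis and conversion genes, beside 45.6% of all probes; with so few genes no difference between the classes was tested. All 17 tested probes of these 6 genes passed the background limit in both channels of every array. STAR, CYP11A1 and CYP17A1 had none that passed on all 4 arrays in either channel, and neither had ESR2.

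**Figure D1:**
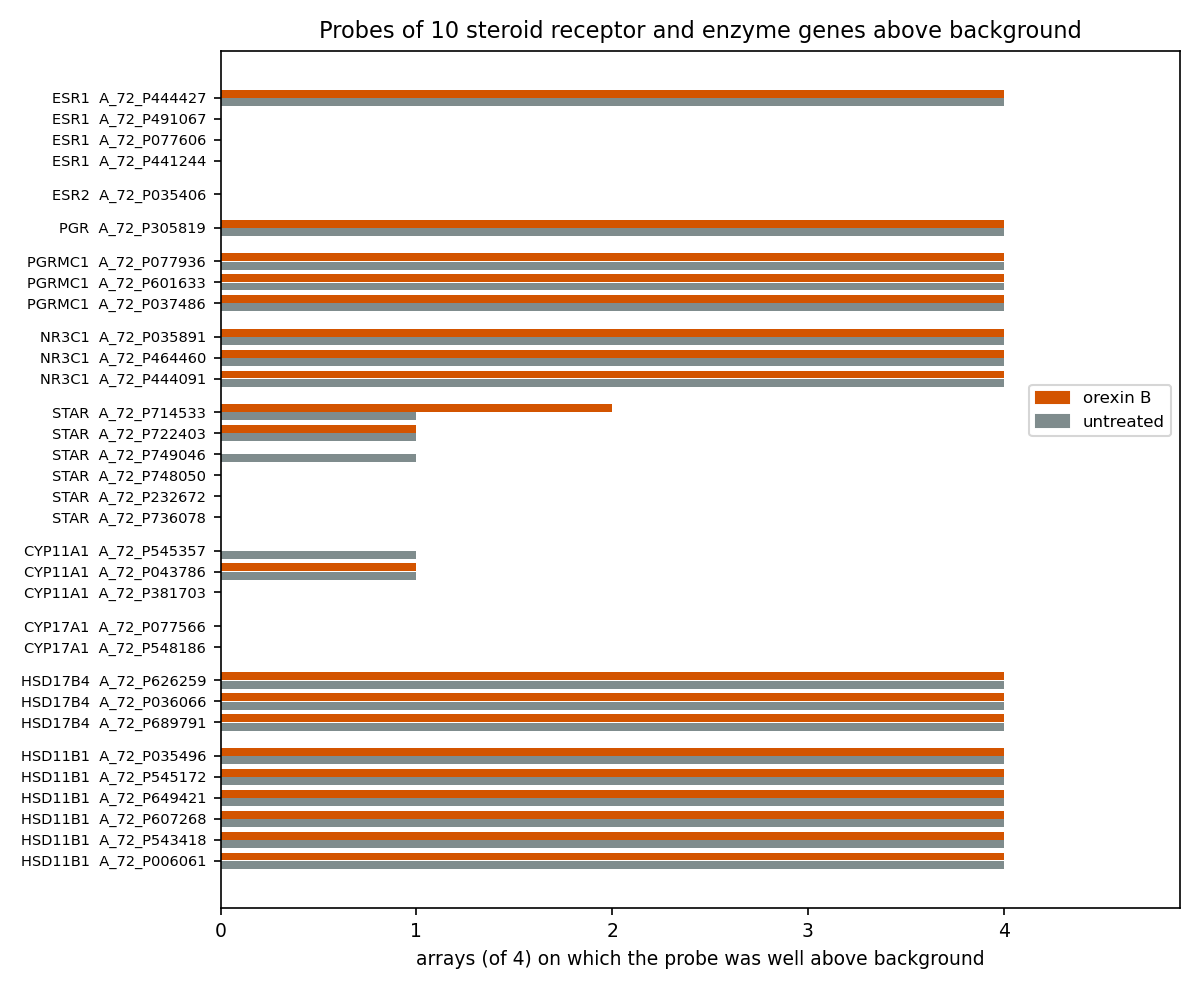
Number of arrays, of 4, on which each of the 32 probes was well above background (horizontal axis), for OXB-treated RNA (orange) and non-treated RNA (grey), with probes grouped by gene. The bars of ESR1 (1 of its 4 probes), PGR, PGRMC1, NR3C1, HSD17B4 and HSD11B1 reach 4, and those of STAR and CYP11A1 reach at most 2 and 1.

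ESR2 had 1 probe and CYP17A1 had 2, and none was well above background on any array in either channel. Their levels ran from 7.38 to 7.63 for ESR2 and from 7.19 to 7.56 for CYP17A1 in OXB-treated RNA, against 7.34 to 7.70 and 7.28 to 7.59 in non-treated RNA. The 16059 probes never above background had a median level of 7.50. CYP11A1 had 3 probes, of which 1 passed on array 1 in the OXB channel and 2 on array 4 in the non-treated channel. No ratio is given for these genes, and where no probe passed the limit the transcript was not detected with these probes. An absent transcript and a probe that fails cannot be told apart here. Probes of 1 gene can disagree: 3 of 4 probes of the measured gene ESR1 were never above background.

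STAR, the cholesterol carrier, had 6 probes and a signal on part of the arrays. Its probe A_72_P714533 was above background on arrays 2 and 4 in OXB-treated RNA and on array 2 in non-treated RNA. The levels of this probe were 7.45, 9.89, 7.58 and 7.84 on arrays 1 to 4 in OXB-treated RNA, against 7.51, 8.47, 7.75 and 7.71 in non-treated RNA. Array 2 was thus the only array on which this STAR probe stood clear of background in both channels. On array 2 none of the other 5 STAR probes passed the limit in either channel; of these, A_72_P722403 passed it in both channels on array 4. Of the markers of ovarian steroid-making cells, AMH, HSD3B1 and CYP19A1 had a tested probe and LHCGR, INSL3, INHA, FSHR and NR5A1 had none.

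ESR1, oestrogen receptor alpha, was the only measured member with all 4 arrays on the same side of 0. Its level was 9.16, 10.58, 9.73 and 9.60 on arrays 1 to 4 in OXB-treated RNA, against 9.01, 10.12, 9.49 and 9.19 in non-treated RNA. The OXB value was the higher on each array, but the ranges of the 2 groups overlapped, and array 2 was the highest in both. The log2 ratios were 0.15, 0.46, 0.24 and 0.41, a mean of 0.31 ± 0.12 or 1.24-fold (95% interval 0.040 to 0.59). This did not pass over all tested probes (unadjusted p = 0.0304, adjusted p = 0.621 in limma, and adjusted p between 0.0995 and 1.00 under the alternatives). Of all tested probes, 8.92% were above 0 on all 4 arrays. The value came from A_72_P444427. The other 3 probes of the gene were never above background, so the gene rests on 1 probe. Whether this probe reads ESR1 alone was not tested. Of 17 tested member probes it was the only one with an unadjusted p under 0.05, a share near the background of 7.72%.

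PGR, the nuclear progesterone receptor, split the arrays into pairs. Arrays 2 and 3 gave log2 ratios of 0.27 and 0.44, whereas arrays 1 and 4 gave -0.67 and -0.60, a mean of -0.14 ± 0.22 (95% interval -0.65 to 0.37, adjusted p = 0.896 in limma). The level was 10.42, 9.90, 10.18 and 10.13 on arrays 1 to 4 in OXB-treated RNA, against 11.09, 9.63, 9.74 and 10.73 in non-treated RNA. The OXB-treated values lay within 0.52 of each other, whereas the non-treated ones spread over 1.46, with arrays 1 and 4 highest. The split did not follow the dyes: the mean ratio was -0.11 with OXB RNA in Cy5 and -0.17 with it in Cy3. The mean turned to 0.036 without array 1 and 0.014 without array 4, and was -0.28 and -0.33 without arrays 2 and 3. The interval leaves room for a mean change of up to 1.29-fold higher or to 0.637 of the non-treated level.

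PGRMC1, a membrane-associated haem-binding protein linked to progesterone action, was measured by 3 probes. The brightest had levels of 12.95, 12.97, 13.04 and 13.06 in OXB-treated RNA, against 12.99, 13.26, 13.08 and 13.05 in non-treated RNA. Its ratios were -0.038, -0.29, -0.033 and 0.011, a mean of -0.088 ± 0.12 (95% interval -0.36 to 0.19, adjusted p = 0.878 in limma), and arrays 1, 3 and 4 lay close to 0. Without array 2 the mean was -0.020. The SD of its ratios over the arrays was 0.14, lower than in most tested probes (13.8% had a lower SD). The probe A_72_P601633 had a mean of -0.034 ± 0.15 from 3 arrays, since its spot on array 1 was marked as an outlier and dropped. The dimmest probe, A_72_P037486, had 0.36, -0.74, 0.57 and 0.16, a mean of 0.088 ± 0.22. All 3 probes were lowest on array 2, and their means stood on both sides of 0; averaged, they gave 0.0051. With median centring the brightest probe had -0.19.

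NR3C1, the glucocorticoid receptor, had 3 tested probes with means of 0.059 ± 0.13, 0.099 ± 0.12 and 0.097 ± 0.14. The brightest had levels of 10.90, 10.49, 11.19 and 10.82 in OXB-treated RNA, against 10.97, 10.65, 11.05 and 10.50 in non-treated RNA, and the 2 groups overlapped. Its ratios were -0.066, -0.16, 0.14 and 0.32 (95% interval -0.24 to 0.36, adjusted p = 0.930 in limma), and the mean was 0.10, 0.13, 0.031 and -0.029 without arrays 1, 2, 3 and 4. On array 1 the 3 probes ran from -0.29 to 0.22, and they also stood on both sides of 0 on arrays 2 (-0.16 to 0.12) and 4 (-0.13 to 0.32); only on array 3 were all above 0, from 0.14 to 0.38. The interval of the brightest probe ends at 1.28-fold on the higher side and at 0.845 of the non-treated level on the lower.

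**Figure D2:**
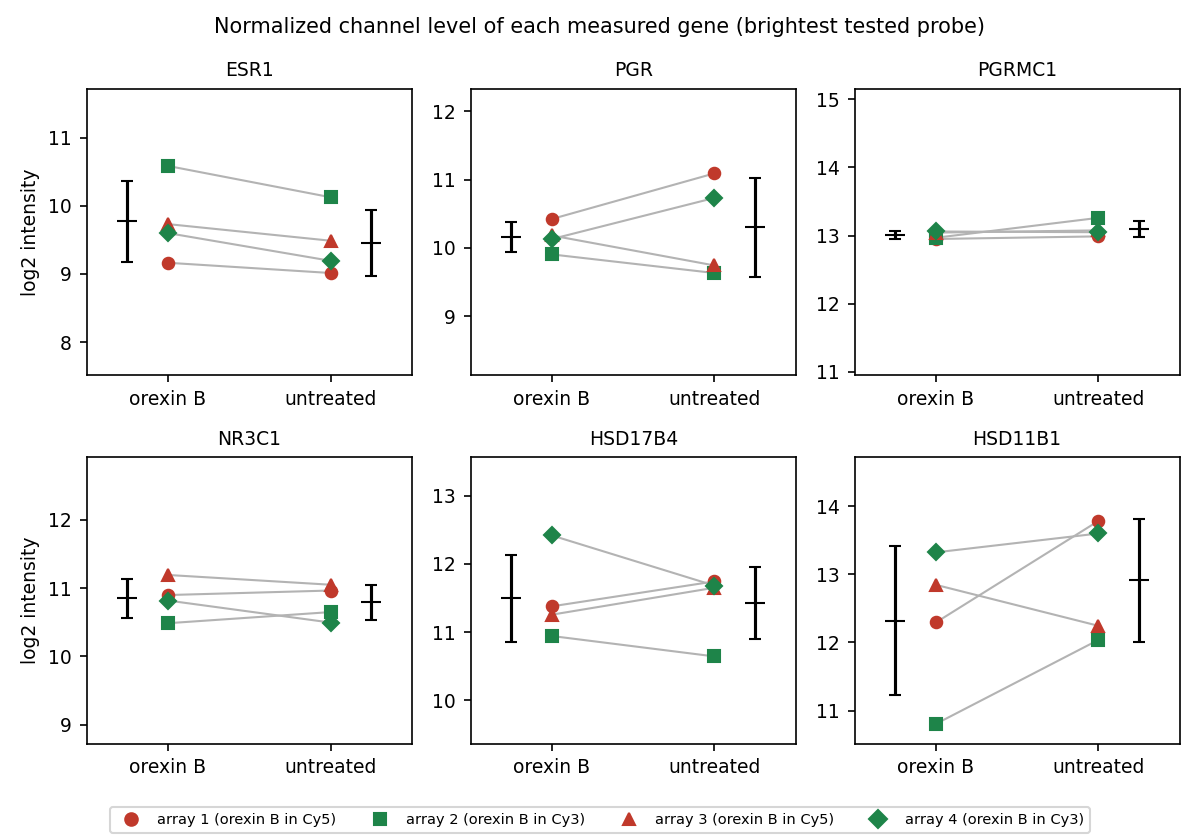
Normalized log2 intensity (vertical axis) of the brightest tested probe of 6 genes in OXB-treated RNA (left) and non-treated RNA (right), with a line joining the channels of an array and black bars for the mean and SD (n = 4). ESR1 lines run down to the right on all 4 arrays, PGRMC1 lines are nearly flat, and HSD11B1 lines cross.

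HSD11B1, which regenerates cortisol, was the most variable member and had the lowest mean. Its brightest probe had levels of 12.29, 10.81, 12.84 and 13.32 on arrays 1 to 4 in OXB-treated RNA, against 13.78, 12.04, 12.24 and 13.60 in non-treated RNA. Values were lower with OXB on arrays 1, 2 and 4 and higher on array 3, and the groups overlapped. The ratios were -1.49, -1.23, 0.60 and -0.28, a mean of -0.60 ± 0.33 (95% interval -1.37 to 0.17, unadjusted p = 0.110, adjusted p = 0.716 in limma). Without array 3 the mean was -0.999 (unadjusted p = 0.00679, adjusted p = 0.403 in limma), and without array 1 or 2 it was -0.30 or -0.39. Under all alternatives the adjusted p lay between 0.295 and 1.00.

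The 6 HSD11B1 probes differed between arrays in the same way. They ran from -1.49 to -0.71 on array 1, from -1.23 to -0.63 on array 2, from 0.50 to 0.82 on array 3 and from -0.35 to -0.079 on array 4. On each array all 6 therefore had the same sign; the probes share the RNA and the hybridisation, and are not replicates. The probe means ran from -0.60 to -0.23, with unadjusted p between 0.110 and 0.313 in limma. The SD of the brightest probe's ratios was 0.95, above that of 98.3% of tested probes, where the median was 0.27. Between arrays the level of this probe spanned 2.52 in OXB-treated RNA and 1.74 in non-treated RNA, both wider than the mean difference between the groups. HSD11B2, which inactivates cortisol again, had no tested probe.

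HSD17B4, a peroxisomal enzyme that oxidises oestradiol and also breaks down fatty acids, had opposite signs in the 2 dye orientations at its brightest probe. Its brightest probe had levels of 11.38, 10.94, 11.26 and 12.42 in OXB-treated RNA, against 11.74, 10.64, 11.65 and 11.68 in non-treated RNA, and the groups overlapped. With OXB RNA in Cy5, arrays 1 and 3 gave log2 ratios of -0.36 and -0.40; with it in Cy3, arrays 2 and 4 gave 0.30 and 0.74. The mean was 0.069 ± 0.21 (95% interval -0.42 to 0.56, adjusted p = 0.952 in limma). Read as Cy5 over Cy3 on every array, which takes the mean dye difference, the same probe had -0.45 (unadjusted p = 0.00786, adjusted p = 0.593 in limma). This did not pass over all tested probes. With a dye term in the fit the mean stayed at 0.069, with a standard error of 0.12. The cause of the pattern was not tested further. The other 2 probes had means of 0.090 ± 0.17 and 0.19 ± 0.18, and all 3 were lowest on array 3 and highest on array 4. On array 1 the 3 probes ran from -0.36 to 0.20, so the sign there depended on the probe. The mean was -0.15 without array 4, -0.0082 without array 2, and 0.21 and 0.22 without arrays 1 and 3.

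**Figure D3:**
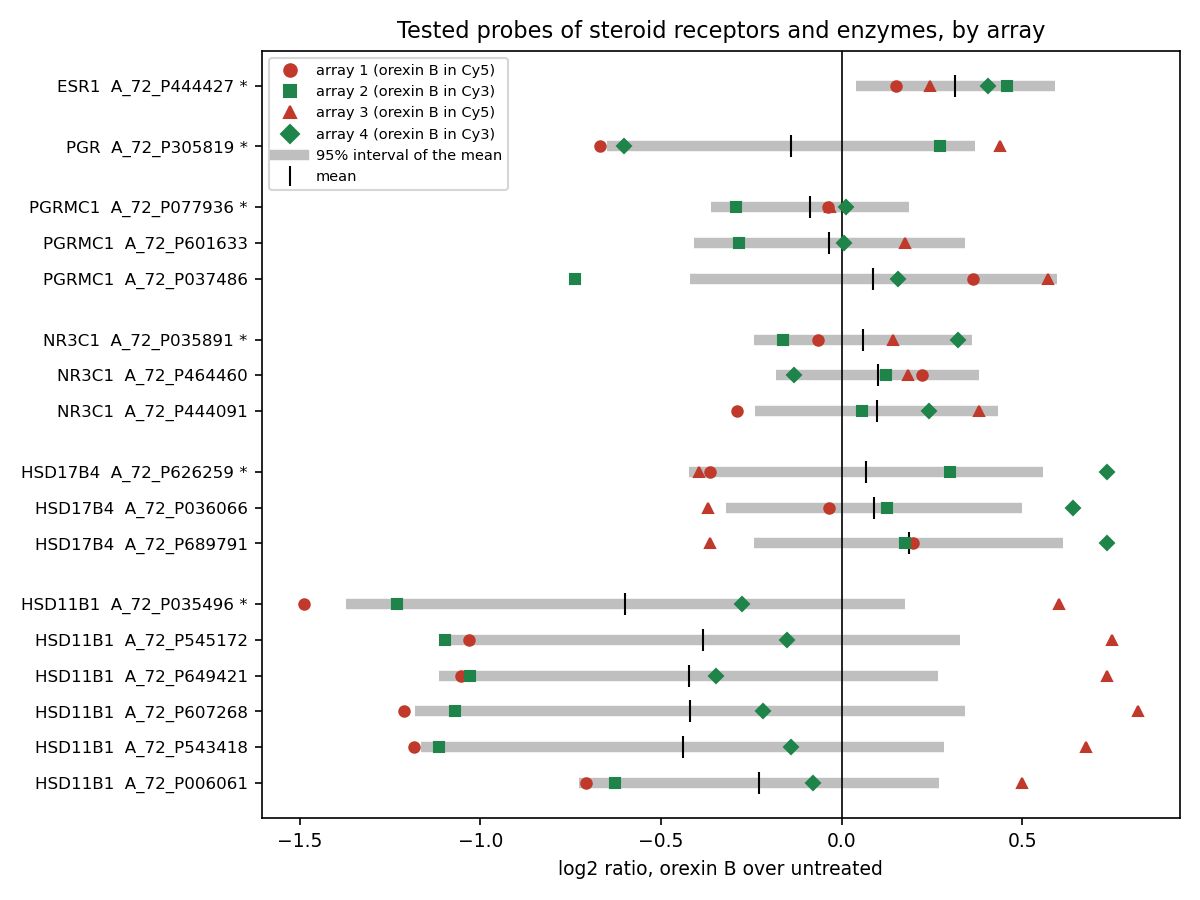
Log2 ratio of OXB-treated over non-treated (horizontal axis) of the 17 tested probes, with a point for each array, red where OXB RNA carried Cy5 and green where it carried Cy3, a black tick for the mean and a grey bar for its 95% interval; an asterisk marks the brightest probe of a gene. All 6 HSD11B1 probes have array 3 on the right and arrays 1 and 2 on the left, and the interval of ESR1 alone lies above 0.

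Set against each other, the 4 measured receptors had a median log2 ratio of -0.014, with 2 above and 2 below 0, and the 2 measured enzymes one of -0.27, with 1 on each side. Over all tested probes the median was 0.018, and 54.1% were above 0. Per array the receptor medians were -0.052, 0.055, 0.19 and 0.17 and the enzyme medians -0.93, -0.47, 0.10 and 0.23. Receptor minus enzyme was 0.87, 0.52, 0.091 and -0.063 on arrays 1 to 4, a mean of 0.36 ± 0.43 (SD, n = 4), so the difference was smaller than its spread between arrays. Without PGRMC1, which is no nuclear receptor, the receptor median was 0.059. Leaving out 1 array at a time, the receptor median ran from -0.038 to 0.069, turning sign without array 1 or 2, and the enzyme median from -0.43 to -0.045, nearest 0 without array 1.

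The direction of every ratio rests on the dye fields. On arrays 2 and 4, 99.98% and 99.998% of the values of the deposited series table matched the scanner software's ratio within 0.01 once it was turned, against 0.420% and 0.610% without turning, so that table also gives OXB-treated over non-treated by the dye fields. Had Cy5 been the OXB channel throughout, the means would be -0.12 for ESR1, 0.025 for PGR, 0.053 for PGRMC1, -0.021 for NR3C1 and 0.16 for HSD11B1.

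Markers of the cells in the slices also moved from array to array, and fewer cells of a type and less RNA per cell cannot be told apart in such tissue. Smooth muscle markers (8 measured) had medians of -0.0012, -1.14, 0.17 and -1.22 on arrays 1 to 4, and fibroblast markers (4 measured) -0.016, -0.72, -0.0016 and -0.77. Epithelial markers (3 measured of 11 listed; CDH1 and CLDN4 did not reach the filter) had 0.24, -0.35, -2.23 and 0.67, with array 3, the array on which HSD11B1 was above 0, far the lowest; without array 3 their median was 0.15, in place of -0.40. Macrophage markers (8 measured, all above 0 on average, 7 with an unadjusted p under 0.05) had 0.69, 0.081, 0.90 and 0.77. Of all tested probes, 54.1% were above 0 and 4.31% were higher at that level. C1QC, 1 of the 7, passed the background limit on all 4 arrays in OXB-treated RNA and on 3 in non-treated RNA. Blood endothelium markers (4 measured) had 0.41, 0.19, 0.016 and 0.33. The part of any of these shifts in the ratios of the steroid genes was not tested. The list medians were 0.21 for T and NK cells (2 of 9 measured), 0.32 for neutrophils (2 of 6), 0.20 for conceptus trophoblast (5 of 10) and 0.079 for ovarian steroid-making cells (3 of 8). These lists overlap: CYP19A1 counts in the trophoblast and ovarian lists, and both CYP19A1 and HSD3B1 also in the steroid synthesis list below. The ovarian median is the value of HSD3B1, above background on 4 arrays in OXB-treated RNA and on 2 in non-treated RNA.

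**Figure D4:**
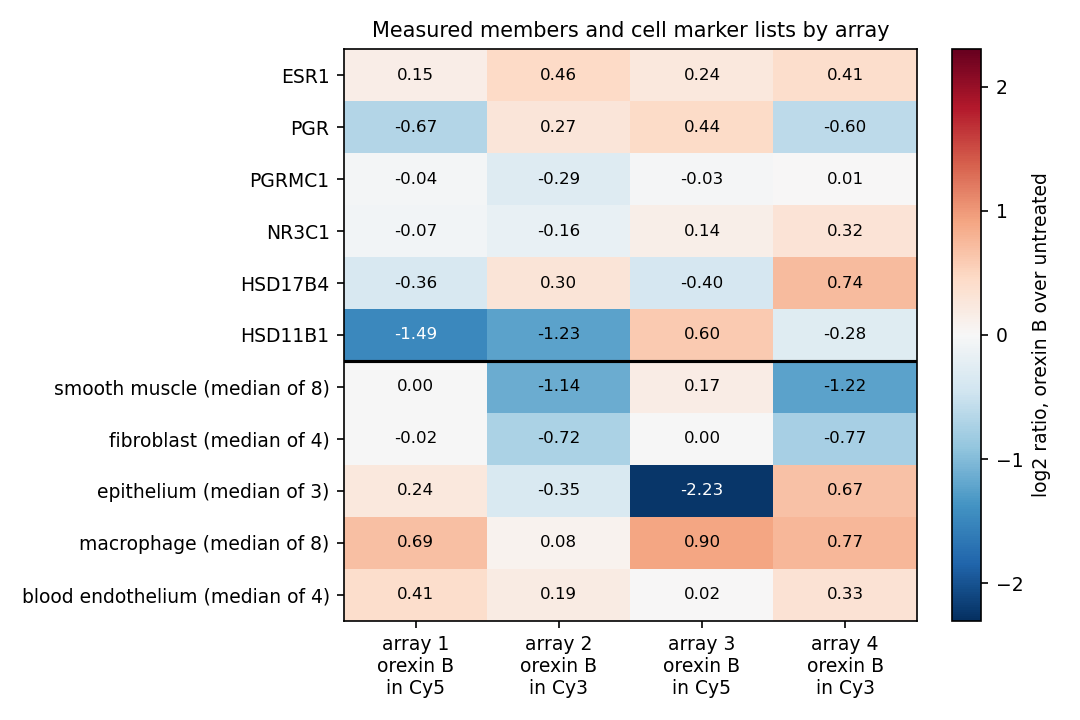
Log2 ratio of OXB-treated over non-treated on each array (columns) for the brightest probe of the 6 measured members (upper rows) and for the median of 5 cell marker lists (lower rows), from blue (lower) to red (higher). HSD11B1 is at -1.49 and -1.23 on arrays 1 and 2 and at 0.60 on array 3, where the epithelial median is -2.23.

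Beyond the 10 members, 6 lists of steroid pathway genes were read, each gene by its brightest tested probe, and no gene on them passed over all tested probes. The list of cholesterol delivery and steroid synthesis had 14 of 24 genes measured, 6 above and 8 below 0. Their median was -0.069, and -0.0059 without array 3. At an unadjusted p under 0.05, 3 were lower and 0 higher, beside 3.41% lower and 4.31% higher over all tested probes. CYB5A, cytochrome b5, a helper of CYP17A1, had ratios of -0.50, -0.44, -0.16 and -0.58, a mean of -0.42 ± 0.12 (unadjusted p = 0.0111, adjusted p = 0.596 in limma). All 6 of its probes had a mean below 0, from -0.42 to -0.057. FDX1, the ferredoxin that passes electrons to CYP11A1, had -0.46, -0.37, -0.22 and -0.46, a mean of -0.38 ± 0.11 (adjusted p = 0.596 in limma), and its 3 probes had means from -0.38 to -0.33. TSPO, a cholesterol-binding protein of the outer mitochondrial membrane, had -0.35, -0.39, 0.056 and -0.85, with only array 3 above 0, and without array 4 its mean was -0.23 in place of -0.38. STARD4, a cytosolic cholesterol carrier, had 0.40 ± 0.17 and was highest on array 2 (0.94); without that array it was 0.22. CYB5A and FDX1 were thus below 0 on all 4 arrays, as 7.08% of tested probes were.

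Other steroid and related receptors numbered 6 measured of 17, of which 2 lay above and 4 below 0. Their median was -0.075, with none at an unadjusted p under 0.05, beside 7.72% of all tested probes. The membrane progestin receptors PAQR7 and PAQR8 had 0.094 ± 0.17 and -0.090 ± 0.13, and NR1H3, the oxysterol receptor LXR alpha, had -0.093 ± 0.14. Leaving out 1 array turned the sign of PAQR7, PAQR8 and NR1H3, whose means then ran from -0.037 to 0.28, from -0.17 to 0.012 and from -0.22 to 0.024. Of genes for local conversion and inactivation, 4 of 25 were measured, with a median of 0.068. None had an unadjusted p under 0.05, beside the same 7.72%, and so few genes say little. The median of these conversion genes ran from -0.0046 to 0.20 when 1 array was left out, turning sign without array 3. CYP3A29, a pig cytochrome P450, had 0.31 ± 0.16, and HSD17B8, a relative of HSD17B4, -0.24 ± 0.16, both with array 2 lowest, at -0.21 and -0.73. Without array 2 they had 0.48 and -0.075, and CYP3A29 had 0.19 without array 3 and 0.63 with the scanner software's processed signals (unadjusted p = 0.0370, adjusted p = 0.617 in limma). HSD17B13 had 0.028 ± 0.12.

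Receptor chaperones and coregulators numbered 8 measured of 20, of which 6 lay above and 2 below 0. Their median was 0.033, with none at an unadjusted p under 0.05, beside 7.72% of all tested probes. FKBP4, a co-chaperone of the progesterone receptor, had 0.12 ± 0.13, the chaperone HSP90AA1 0.060 ± 0.12, and the coactivators NCOA1 and NCOA3 0.092 ± 0.16 and 0.028 ± 0.12. These counts rest on the brightest probe of each gene: the 6 HSP90AA1 probes had means from 0.023 to 0.65, and of the 6 probes of its relative HSP90AB1, named here after its values were seen, the brightest had -0.017 and the other 5 were above 0, up to 0.90. Leaving out 1 array, FKBP4 ran from 0.050 to 0.20 and HSP90AA1 from 0.011 to 0.14. NCOA1 was highest on array 2, at 0.61, and was -0.081 without it.

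Genes that oestrogen or progesterone is known to regulate in the uterus numbered 14 measured of 27, of which 9 lay above and 5 below 0. Their median was 0.10. At an unadjusted p under 0.05, 3 were higher and 0 lower, beside 4.31% higher and 3.41% lower over all tested probes. STC1, the hormone stanniocalcin, had 0.78, 2.51, 0.79 and 0.52, a mean of 1.15 ± 0.32 or 2.22-fold (unadjusted p = 0.00828, adjusted p = 0.596 in limma), and 0.69 without array 2. SPP1 (osteopontin, an adhesion protein) had 0.64, 0.43, -0.16 and 1.21, a mean of 0.53 ± 0.21 with 4 probes between 0.40 and 0.53, and 0.30 without array 4. Macrophages also make it, and their marker median was 0.61. By array that median was 0.69, 0.081, 0.90 and 0.77, with array 3 the highest, where SPP1 was lowest. The epithelial marker median was -0.40. On arrays 1 to 4 it was 0.24, -0.35, -2.23 and 0.67, lowest on array 3 and highest on array 4, as SPP1 was. The part of macrophage or epithelial RNA in the SPP1 ratio was not tested. The gap junction gene GJA1 had 0.19, 0.60, 0.075 and 0.37, above 0 on all 4 arrays, as 8.92% of tested probes were. The oxytocin receptor OXTR had 0.36, -0.16, 0.096 and 0.34, a mean of 0.16 ± 0.13 that was 0.26 without array 2.

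Glucocorticoid-responsive genes numbered 11 measured of 21. At an unadjusted p under 0.05, 1 was lower and 0 higher, beside 3.41% lower and 4.31% higher over all tested probes. Of the 11, 6 lay above and 5 below 0, and their median was 0.047. That median ran from -0.041 to 0.16 when 1 array was left out, turning sign without array 1. KLF15, a transcription factor induced by cortisol, had -0.61, -0.35, 0.045 and -0.40, a mean of -0.33 ± 0.14 (adjusted p = 0.645 in limma). It lay below 0 on arrays 1, 2 and 4 and above 0 on array 3, as HSD11B1 did. TSPO, HSD17B8, NPC1, AMH, the smooth muscle markers CNN1, DES, MYLK and SMTN and the fibroblast marker LUM had these signs too, among others. The smooth muscle markers ACTA2, MYL9, TPM1 and TPM2 and the fibroblast markers COL1A2, DCN and CD34 did not. A link between any of these genes was not tested, and 4 arrays are too few for a correlation. ANXA1 (annexin A1, an anti-inflammatory protein) had 0.37 ± 0.19 and NFKBIA, an inhibitor of NF-kB, 0.36 ± 0.24. Without array 2 these means were 0.16 and 0.11, and without array 1 NFKBIA was 0.62.

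**Figure D5:**
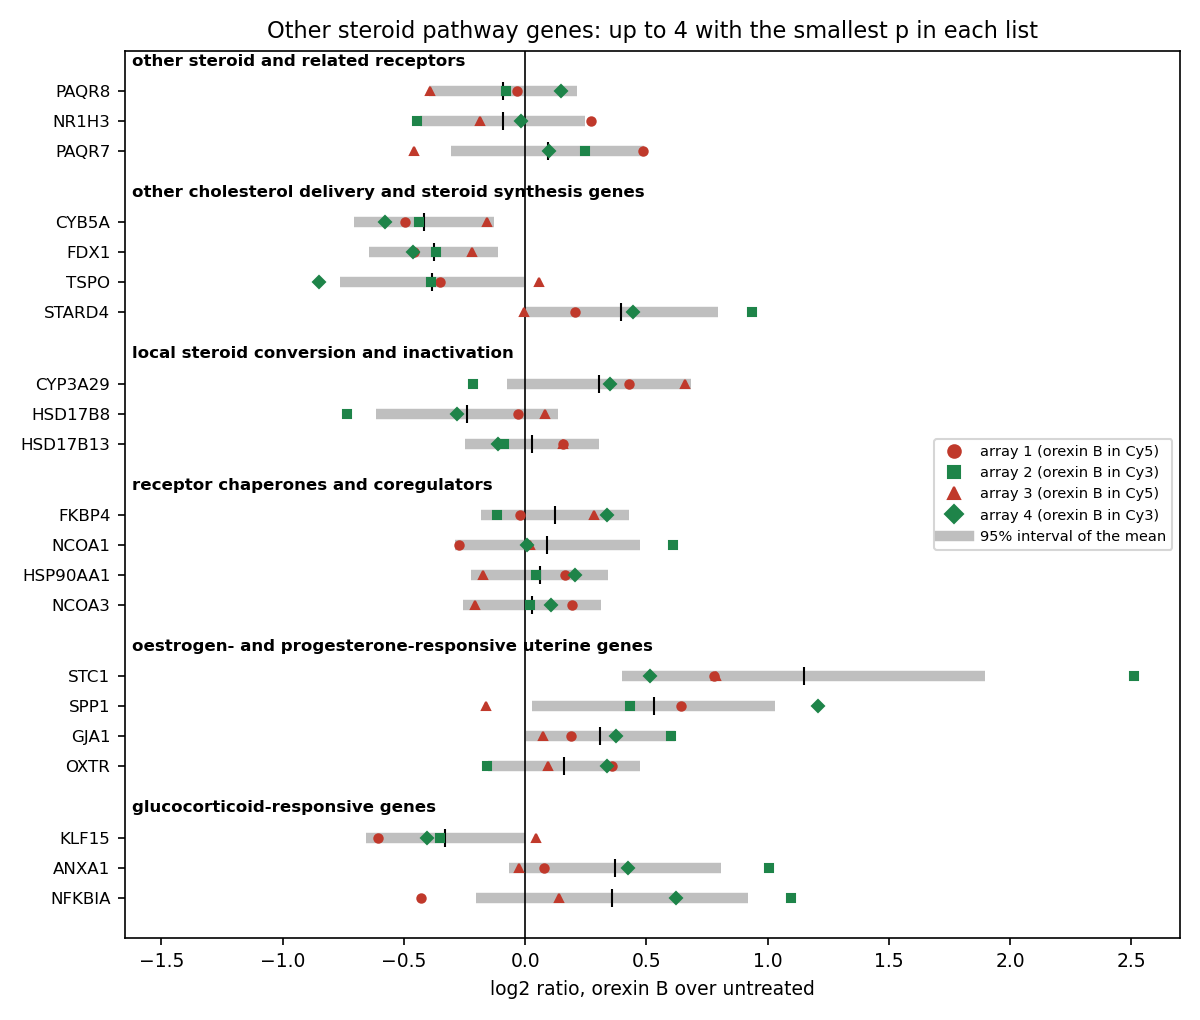
Log2 ratio of OXB-treated over non-treated (horizontal axis) for up to 4 genes with the smallest unadjusted p in each of 6 steroid pathway lists, with a point for each array (red, OXB RNA in Cy5; green, in Cy3) and a grey bar for the 95% interval of the mean. CYB5A, FDX1 and STC1 have all their points on 1 side of 0, as GJA1 has, and STC1 reaches 2.51 on array 2.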

How the data were processed

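Total RNA was labelled as cRNA (825 ng per dye, per the labels' protocols) and hybridised to 2-colour Agilent arrays. Per the file headers, Agilent Feature Extraction 10.7.3.1 gave each spot an intensity in both colours (the median of its pixels) and a local background, and the authors deposited these scanner files. Processed intensity values, corrected and dye-normalized by that software, stand beside them, as does a deposited log10 ratio (Cy5 over Cy3) that was not used here. The deposited series table holds log2 ratios, with column medians of -0.27, -0.082, -0.20 and -0.094; set against the processed signals it showed no further centring, and its direction is given above. Since the files name no build, no coordinates are given.

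In R 4.3.3 with limma 3.58.1, background was corrected by normexp (offset 50) and arrays normalized singly by loess (control spots weighted 0); median spot signals were used, as the files hold no mean ones. Control spots and spots marked as outliers (31 to 138 per array) were left out and spots of a probe averaged. A probe was tested if well above background on all 4 arrays in either channel, with an unmarked spot on at least 3; no spot was saturated. Ratios were turned by the dye fields and fitted with an intercept (lmFit, eBayes; 3 residual and 4.10 prior degrees of freedom). The two-sided p-values were then adjusted over every tested probe (Benjamini-Hochberg). The labels name 4 gilts, but nothing states separate animals per array. The p-values therefore set a mean ratio only against the spread between these 4 arrays, which may be technical. Channel levels were scaled between arrays by Aquantile. Genes were named by unversioned RefSeq accession from the Sscrofa11.1 table, for 6700 probes. A gene was represented by its brightest tested probe. Per array, 48.7% to 54.3% of probes were well above background in OXB-treated and 37.6% to 58.2% in non-treated RNA.

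The members, lists and tests were chosen with earlier results of these data known. The members were named whatever their values, with up to 4 genes of smallest unadjusted p from each pathway list; some of these genes are not reported here, though counted in their lists. The fit was tested on simulated ratios. Alternatives covered background, normalization, source of the values, filter, dye, slide, channel pairing, direction, choice of probe and leaving out each array in turn. Plots were made in matplotlib 3.10.9 (Python 3.11.15).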

Additional observations from a re-analysis of the deposited data

Results flagged for a closer look

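Among 42 genes or lists, 2 had 1 array standing far off the other 3, and chance alone gives about 2.1. For PGRMC1 array 2 stood off, at a log2 ratio of -0.29, with the other arrays between -0.038 and 0.011; its other probes had -0.28 and -0.74 on array 2, also their lowest. For STC1, read from 1 tested probe, it was also array 2, at 2.51, with the other arrays between 0.52 and 0.79.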

How the results depend on the processing

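No alternative gave a probe past an adjusted p of 0.05. The smallest adjusted p of any probe ran from 0.0783 to 1.00 over the analyses, and 1195 probes had an unadjusted p under 0.05 in an unmoderated one-sample test, against 1534 in limma. That count was 177 with median centring, 2302 without a filter, 2382 with a dye term, 4280 with slide as a random block (consensus correlation -0.26, with 1 array alone on its slide), 493 with the channels unpaired, and 726 to 1922 without 1 replicate. The cause of these differences was not tested, beyond the larger number of probes tested without a filter and the form of the slide fit described next. The smallest adjusted p, 0.0783, came with slide as a random block, as did the lowest ones given for ESR1 and HSD11B1. There the standard errors of the 6 measured members were smaller, at 0.083 in place of 0.12 for ESR1 and 0.23 in place of 0.33 for HSD11B1. A negative correlation within a slide narrows the standard error of a mean by the form of that fit. Over the alternatives other than leaving out an array, the 6 measured members kept their direction in 57 of 64 values. Many of these values could not turn. A stricter or no background filter, the dye term and the unpaired channels return the same mean ratio, and the series table repeats the processed signals. The 7 values that changed direction were PGRMC1 averaged over its probes (0.0051) and the ratios read as Cy5 over Cy3 on every array: -0.12 for ESR1, 0.025 for PGR, 0.053 for PGRMC1, -0.021 for NR3C1, -0.45 for HSD17B4 and 0.16 for HSD11B1. Read that way, other genes also changed sign: PAQR7 -0.079, NR1H3 0.14, STARD4 -0.30, TSPO 0.24, FDX1 0.038, CYB5A 0.091, HSD17B8 0.27, HSP90AA1 -0.064, NCOA1 -0.22, NCOA3 -0.034, GJA1 -0.18, SPP1 -0.29, STC1 -0.37, KLF15 0.048, NFKBIA -0.50 and ANXA1 -0.34. With median centring HSD17B13 was -0.0044 and HSP90AA1 -0.074. Genes whose sign turned without 1 replicate ran from -0.33 to 0.036 for PGR, -0.029 to 0.13 for NR3C1, -0.15 to 0.22 for HSD17B4, -0.037 to 0.28 for PAQR7, -0.17 to 0.012 for PAQR8, -0.22 to 0.024 for NR1H3, -0.015 to 0.075 for HSD17B13, -0.081 to 0.21 for NCOA1 and -0.027 to 0.11 for NCOA3. The number of members above background was 6 with 3 of 4 arrays required as well. The ratios already pair the RNAs of an array, and the fit without that pairing is given above. No further paired analysis was possible because the arrays form a single group, with no other group sharing their numbers. The limits are 4 arrays, 1 usable probe for ESR1 and PGR, and no probe of ESR2, STAR, CYP11A1 or CYP17A1 above background on all arrays.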

Other observations

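Some genes of the hormone-responsive lists were far lowest on array 3, and 4 of them are given here, chosen after their values were seen; others of these lists were not, such as STC1, at 0.79 there. ACP5 (uteroferrin, an iron-carrying secretion) had log2 ratios of -0.37, 0.43, -2.24 and 1.10 on arrays 1 to 4, and the protease inhibitor SLPI had -0.086, -0.17, -2.28 and 0.73. The metallothionein MT1A, which glucocorticoids and metals induce, had -0.19, 0.55, -2.32 and 0.18, and PDK4, a kinase that restrains glucose oxidation, 1.15, 0.33, -1.36 and 1.21. All 4 were lowest on array 3, as were the epithelial markers, with a median of -2.23 there; the part of epithelial RNA in these values was not tested. None passed over all tested probes (adjusted p = 0.912, 0.824, 0.825 and 0.867 in limma).

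CYP19A1 (aromatase, which makes oestrogens) was also chosen after its values were seen. It had 0.35, 0.29, 0.22 and 0.14, above 0 on every array, as 8.92% of tested probes were. Its mean was 0.25 ± 0.11 (unadjusted p = 0.0582, adjusted p = 0.645 in limma). Of its 2 probes 1 was tested. The pig carries near-identical copies, CYP19A2 and CYP19A3, which had no tested probe here, so the reading of this probe as CYP19A1 is uncertain.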
